A study of Mus musculus with 6 samples.

Results

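The genes described here are 32 genes of protein folding in the endoplasmic reticulum (ER) and of the unfolded protein response, out of 55536 genes in the count files. They were taken by symbol from GENCODE vM21 and grouped into 14 folding genes, 3 sensor and transducer genes of the IRE1 and ATF6 arms, 7 genes of the PERK and ATF4 arm, 6 genes of ER-associated degradation and 2 genes of the translocon. Ddit3 has a second identifier in that release, so the 32 symbols correspond to 33 entries, and 31 symbols passed the filter on low counts. Chac1 was the symbol that did not pass.

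RNA-seq was made on stromal cells (CD45-, CD31-, CD29+) sorted from quadriceps of mice in which a part of the muscle had been cut out at 10 weeks of age. The mice carried a tdTomato reporter of p16 on the C57Bl/6 strain, so that both groups had the same reporter genotype, injury and sort gate, and all animals received carprofen at 5 mg/kg. There were 3 libraries of tdTomato-positive cells (p16+) and 3 of tdTomato-negative cells (p16-). The p16 protein is a cell cycle inhibitor encoded by Cdkn2a and a common mark of senescent cells. The study filled the defects with 50 uL of saline, 30 mg of polycaprolactone or a decellularized matrix, and harvested 1 or 6 weeks later. The labels do not tie a filler or a time to any library, so differences of filler or time between the groups cannot be told apart from the reporter. They also do not describe the construct that drives tdTomato, or say whether each replicate was its own animal. The p-values therefore rest on the spread among these 6 libraries, which may be partly technical.

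The ER folds and modifies secreted and membrane proteins, and cells that secrete much collagen depend on its chaperones and disulfide isomerases. When unfolded proteins accumulate, 3 sensors in the ER membrane respond. IRE1, encoded by Ern1, splices the Xbp1 transcript so that it encodes an active transcription factor. ATF6 moves to the Golgi, where it is cut to free a transcription factor for chaperone genes. PERK, encoded by Eif2ak3, phosphorylates the initiation factor eIF2alpha, which lowers translation in general and favours that of ATF4, an activator of Ddit3, Trib3, Chac1, Asns and Ppp1r15a. ATF6 and XBP1 are known to act through the ER stress response elements ERSE and ERSE-II, XBP1 also through the element UPRE, and ATF4 through CARE, a composite element for C/EBP and ATF proteins.

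The promoters of the members show where these elements lie. Windows from 250 bases before to 50 bases after the transcription start, from RefSeq on GRCm38.p6, were found for 28 of the 32 symbols, with no entry for Manf, Hyou1, Atf6 and Derl1. Each motif was searched on both strands, ERSE as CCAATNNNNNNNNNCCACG, ERSE-II as ATTGGNCCACG, the UPRE core as TGACGTGG and the CARE core as TGATGNAA. ERSE lay in 9 of the 28 members (32.1%), against 37 of all 27025 genes of the promoter table (0.137%) and 19 of the 11404 tested genes that had a window (0.167%). These 9 were 7 of 12 folding genes and 2 of 5 degradation genes, and Hsp90b1 held 2 copies. The members were chosen as genes of a response in which ERSE is a known element. Their share is therefore not an independent test of that element. The sites of the folding genes are shown first because they are the genes in which most of the called differences lay, and the capitals mark ERSE. Each is written 5′ to 3′ on the strand of its gene, so that a site on the opposite strand begins with CGTGG, and up to 20 bases are shown on each side.
Calr, chr8:84847055-84847113, minus strand: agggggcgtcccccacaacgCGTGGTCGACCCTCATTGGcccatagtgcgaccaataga
Pdia6, chr12:17266471-17266529, plus strand: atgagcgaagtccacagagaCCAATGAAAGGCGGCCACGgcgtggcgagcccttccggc
Creld2, chr15:88819500-88819558, plus strand: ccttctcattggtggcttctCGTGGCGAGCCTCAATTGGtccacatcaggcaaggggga
Hspa5, chr2:34772020-34772048, plus strand: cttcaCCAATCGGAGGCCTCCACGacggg
Hsp90b1, chr10:86705618-86705676, minus strand: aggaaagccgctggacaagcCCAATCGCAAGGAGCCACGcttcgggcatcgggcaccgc
Hsp90b1, chr10:86705513-86705571, minus strand: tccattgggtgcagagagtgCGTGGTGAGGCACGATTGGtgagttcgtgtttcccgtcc
Canx, chr11:50325780-50325838, minus strand: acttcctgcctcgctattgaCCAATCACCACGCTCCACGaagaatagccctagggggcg
Dnajc3, chr14:118937807-118937865, plus strand: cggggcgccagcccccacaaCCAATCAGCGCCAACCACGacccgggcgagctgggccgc

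The degradation genes Syvn1 and Derl3 held ERSE as well, and Herpud1 held ERSE-II, a motif found in 2 of 28 members (7.14% of their windows) and in 12 of the 27025 genes (0.044%). The other ERSE-II of the members lay in Dnajb11, after the start. The CARE core lay in 4 of 28 members (14.3%), against 1219 of 27025 genes (4.511%), namely Chac1, Asns and Trib3 of the ATF4 arm and Herpud1, with the Trib3 match after the start. The UPRE core was not in any of the 28 windows and was in 193 of 27025 genes (0.714%). No matches of different motifs overlapped in these windows. Capitals mark the motif named, and the opposite-strand CARE cores shown, in Herpud1 and Chac1, read TTGCATCA.
Syvn1, ERSE, chr19:6046512-6046570, plus strand: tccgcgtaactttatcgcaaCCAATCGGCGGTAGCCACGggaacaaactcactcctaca
Derl3, ERSE, chr10:75893222-75893280, plus strand: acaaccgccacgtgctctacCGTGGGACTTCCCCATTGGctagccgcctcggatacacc
Herpud1, ERSE-II, chr8:94386357-94386407, plus strand: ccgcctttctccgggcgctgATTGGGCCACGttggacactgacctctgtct
Herpud1, CARE core, chr8:94386297-94386344, plus strand: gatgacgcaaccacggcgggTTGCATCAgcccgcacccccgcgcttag
Chac1, CARE core, chr2:119351029-119351076, plus strand: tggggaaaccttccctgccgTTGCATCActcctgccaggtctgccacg
Asns, CARE core, chr6:7693220-7693237, minus strand: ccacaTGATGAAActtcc

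Total counts were 35253406 to 37861713 per p16+ library, against 36507067 to 39103909 per p16- library. Levels are given as CPM, counts relative to the size of the library, which was scaled by edgeR's TMM factors. Cdkn2a measured 6.91, 8.82 and 7.74 CPM in the p16+ libraries, against 2.41, 1.77 and 2.20 CPM in the p16- libraries, 3.67-fold higher in p16+ (edgeR quasi-likelihood test, Benjamini-Hochberg adjusted p = 2.00e-05). These counts do not separate p16 from p19Arf, the other protein of Cdkn2a. Among the surface proteins used for sorting, Itgb1 (CD29) measured 869.1, 912.6 and 892.7 CPM in p16+ and 696.0, 786.9 and 790.0 CPM in p16-, with Ptprc (CD45) at 4.14 to 9.77 CPM and Pecam1 (CD31) at 2.56 to 8.12 CPM over the 6 libraries. In bulk samples, fewer cells of a type and less RNA per cell cannot be told apart.

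Of the 31 tested genes, 10 were higher and 1 was lower in p16+ than in p16-. Those that rose were ER chaperones, disulfide isomerases, cochaperones and components of the translocon, at 1.19-fold to 1.48-fold, and 0 of the 11 reached a 2-fold change. The gene that fell was Ppp1r15a of the PERK arm. A call here means an adjusted p under 0.05 from edgeR's quasi-likelihood test with Benjamini-Hochberg adjustment over 15903 genes. The members called higher were 32.3% of those tested, against 8.69% of all tested genes, and the members called lower were 3.23%, against 8.04% of all tested genes (16.7% in either direction). The median log2 fold change, p16+ over p16-, was 0.20 for the members and -0.01 for all tested genes, and 23 of the 31 members had a positive value. Since abundant genes are called more often, the counts were also set against genes with a mean of at least 10 CPM, a limit chosen after the data were seen. Of 29 members over that limit 10 were higher and 1 was lower, against 12.3% higher and 11.1% lower among the 8775 genes. The lowest p16+ library was above the highest p16- library for 15 members, against 16.6% of all tested genes, and the reverse held for 0 members, against 16.5%.

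The count of members called higher depended on single libraries. It was 6 without p16+ replicate 1, 6 without p16+ replicate 2 and 5 without p16+ replicate 3, and between 7 and 9 without one of the p16- libraries. The count called lower was 0 when p16+ replicate 2, p16- replicate 1 or p16- replicate 3 was left out, and 3 without p16- replicate 2. Fits with 5 libraries called 977 to 1333 of all genes higher, against 1382 with all 6.

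**Figure D1:**
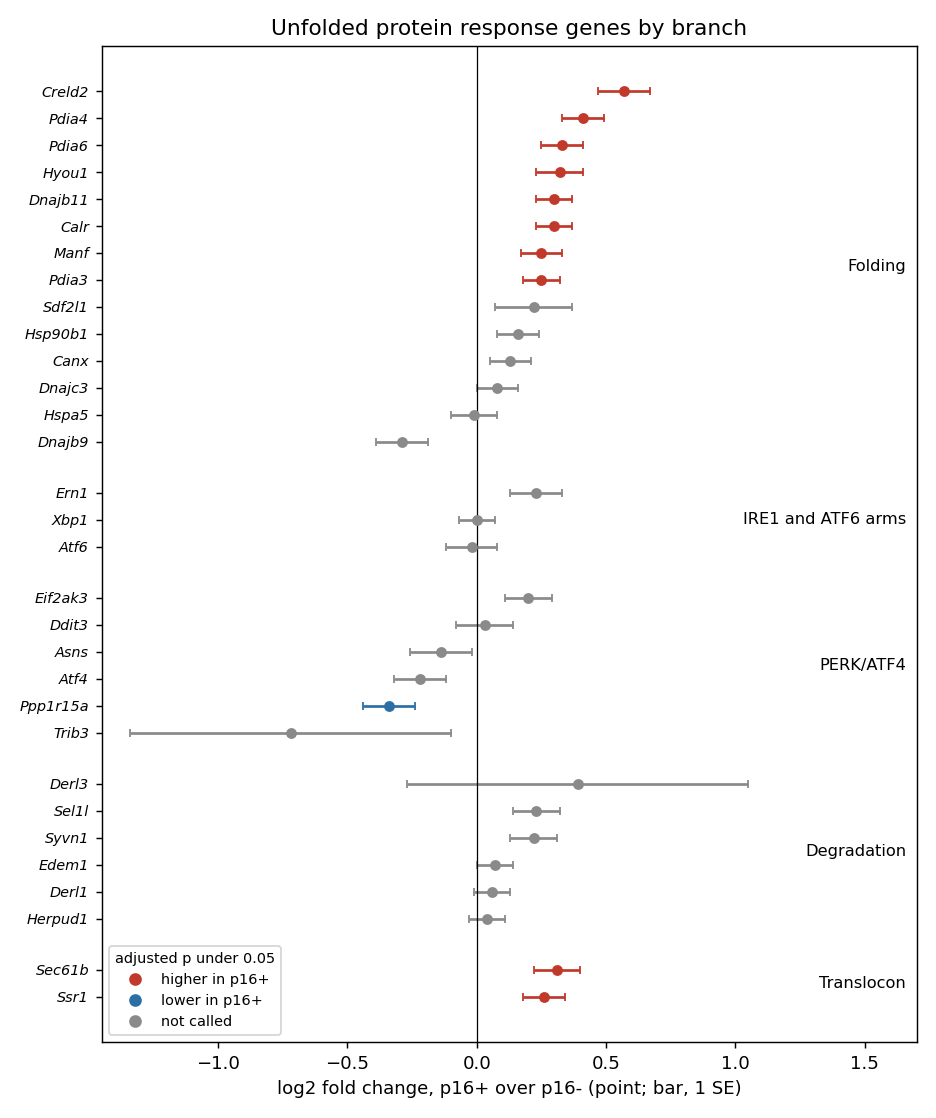
Log2 fold change (p16+ over p16-) of the 31 tested genes, grouped by branch, with 1 SE on each side from edgeR's quasi-likelihood fit on 3 libraries per group; red points were higher and blue points lower in p16+ at an adjusted p under 0.05, and grey points were not called. The 10 red points are folding and translocon genes, and the single blue point is Ppp1r15a at -0.34.

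Among the 14 folding genes, 8 rose in p16+, 0 fell, and 6 were not called, with a median log2 fold change of 0.25. The 8 were 57.1%, against 8.69% of all tested genes and 12.3% of those with a mean of at least 10 CPM. At an unadjusted p under 0.05 the edgeR counts were 8 higher and 1 lower, and DESeq2 called 8 higher and 1 lower. The summed level of the 14 genes was 5412.2, 5289.7 and 5475.4 CPM in the p16+ libraries, against 4750.3, 4640.4 and 5038.8 CPM in the p16- libraries, so the sums did not overlap.

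Creld2, a secreted protein of the ER stress response with disulfide isomerase activity, had the highest fold of all members. The gene (ENSMUSG00000023272.4) lies on chromosome 15 from 88819646 to 88826683, plus strand, on GRCm38. Its level was 53.5, 42.8 and 45.6 CPM in p16+, against 31.3, 29.3 and 35.3 CPM in p16-. All 3 p16+ libraries lay above all 3 p16- libraries, with p16+ replicate 1 the highest. The log2 fold change was 0.57 (SE 0.10, 95% interval 0.34 to 0.79, edgeR adjusted p = 0.00112), or 1.48-fold.

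The disulfide isomerases, which form and rearrange disulfide bonds in the ER, rose together. Pdia4 (ENSMUSG00000025823.9) lies on chromosome 6 from 47796141 to 47813430, minus strand, and measured 200.7, 205.6 and 197.9 CPM in p16+, against 136.5, 156.2 and 161.5 CPM in p16-. The p16+ libraries were close to each other and all above p16-, whose replicate 1 was lowest. Its log2 fold change was 0.41 (SE 0.08, edgeR adjusted p = 0.00184). Pdia6 (ENSMUSG00000020571.12, chromosome 12 from 17266545 to 17284770, plus strand) measured 273.2, 281.8 and 280.8 CPM in p16+, against 209.1, 228.9 and 228.8 CPM in p16-, and p16- replicate 1 was again the lowest library. Its log2 fold change was 0.33 (SE 0.08, edgeR adjusted p = 0.00618). Pdia3, which works with the lectin chaperones on glycoproteins, measured 836.7, 885.2 and 877.2 CPM in p16+, against 719.6, 729.9 and 739.9 CPM in p16-. No library of p16- reached p16+, and the log2 fold change was 0.25 (SE 0.07, edgeR adjusted p = 0.0293). The Pdia3 call was lost without any one p16+ library (edgeR adjusted p = 0.0511, 0.134 and 0.116 without replicates 1, 2 and 3) and without p16- replicate 3 (0.0904).

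Calr encodes calreticulin, the soluble lectin chaperone that binds glycoproteins with a trimmed sugar chain. The gene (ENSMUSG00000003814.8) lies on chromosome 8 from 84841850 to 84846934, minus strand. It measured 937.8, 898.2 and 907.0 CPM in p16+, against 729.3, 725.0 and 767.8 CPM in p16-. The groups were far apart relative to their spread, with means of 914.3 ± 20.8 CPM in p16+, against 740.7 ± 23.6 CPM in p16- (SD, n = 3 each). The log2 fold change was 0.30 (SE 0.07, edgeR adjusted p = 0.00899). Canx, the membrane-bound counterpart calnexin, measured 370.3, 363.2 and 350.2 CPM in p16+, against 298.8, 335.1 and 354.9 CPM in p16-. The groups overlapped, since p16- replicate 3 lay above p16+ replicate 3, and Canx was not called (log2 fold change 0.13, edgeR adjusted p = 0.322).

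BiP, the Hsp70 of the ER that holds the 3 sensors inactive, is encoded by Hspa5. It measured 1281.1, 1194.2 and 1352.9 CPM in p16+, against 1361.2, 1136.4 and 1361.0 CPM in p16-. The ranges overlapped, and within each group replicate 2 was lowest. The log2 fold change was -0.01 with a 95% interval of -0.20 to 0.18 (edgeR adjusted p = 0.952). Hsp90b1, the ER member of the Hsp90 family, measured 780.6, 773.8 and 767.9 CPM in p16+, against 645.8, 703.7 and 733.4 CPM in p16-. The groups did not overlap, but the log2 fold change of 0.16 (95% interval -0.01 to 0.32) was not called (edgeR adjusted p = 0.20). Of its exonic length, 15.7% is shared with other genes, and fragments there were not counted.

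BiP's cochaperones did not move as one. Dnajb11, an ER J-domain protein that delivers unfolded clients to BiP, measured 111.3, 107.2 and 115.5 CPM in p16+, against 92.2, 85.9 and 92.6 CPM in p16-. All p16+ values were above all p16- values, and the log2 fold change was 0.30 (SE 0.07, edgeR adjusted p = 0.00908). That call was lost without p16+ replicate 3 (edgeR adjusted p = 0.0574). Hyou1, a large chaperone that exchanges nucleotide on BiP, measured 131.7, 119.8 and 128.4 CPM in p16+, against 90.7, 99.0 and 114.7 CPM in p16-. The groups did not overlap, and p16- had the wider spread. Its log2 fold change was 0.32 (SE 0.09, edgeR adjusted p = 0.0204), and the call was lost without p16+ replicate 1 (0.086) or replicate 3 (0.0866). Manf, a secreted trophic factor retained in the ER through BiP, measured 104.3, 93.6 and 95.7 CPM in p16+, against 80.9, 76.5 and 88.7 CPM in p16-. All p16+ libraries were above all p16- libraries, with a log2 fold change of 0.25 (SE 0.08, edgeR adjusted p = 0.0414). The Manf call was lost without each p16+ library (edgeR adjusted p = 0.174, 0.0725 and 0.0947 without replicates 1, 2 and 3) and without p16- replicate 1 (0.0518) or replicate 2 (0.129).

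Dnajb9, the ER J-domain protein ERdj4 that represses IRE1 through BiP and is a target of spliced XBP1, had the opposite sign. It measured 110.1, 109.3 and 137.0 CPM in p16+, against 161.0, 135.4 and 138.0 CPM in p16-. The groups overlapped because p16+ replicate 3 lay between the p16- libraries, and the log2 fold change of -0.29 (SE 0.10) was not called (edgeR adjusted p = 0.0601). It was called lower in 6 of the 14 alternative settings, with adjusted p between 0.0104 and 0.0438. Dnajc3, an inhibitor of PERK that also acts as a BiP cochaperone, measured 200.8, 200.8 and 204.8 CPM in p16+, against 179.3, 186.2 and 207.8 CPM in p16- (log2 fold change 0.08, edgeR adjusted p = 0.559). Sdf2l1, another cochaperone of BiP, measured 20.2, 14.2 and 14.4 CPM in p16+, against 14.8, 12.8 and 14.4 CPM in p16- (log2 fold change 0.22, edgeR adjusted p = 0.385). Both overlapped between the groups.

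Of the 9 genes with ERSE, Calr, Pdia6 and Creld2 rose in p16+ and the other 6, Hspa5, Hsp90b1, Canx, Dnajc3, Syvn1 and Derl3, were not called. Of the 8 called-higher members with a window, 3 held ERSE (37.5%), against 9 of all 28 members with a window (32.1%). Another 1 held ERSE-II, and Pdia3, Pdia4, Sec61b and Ssr1 held no match of the motifs in this window.

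**Figure D2:**
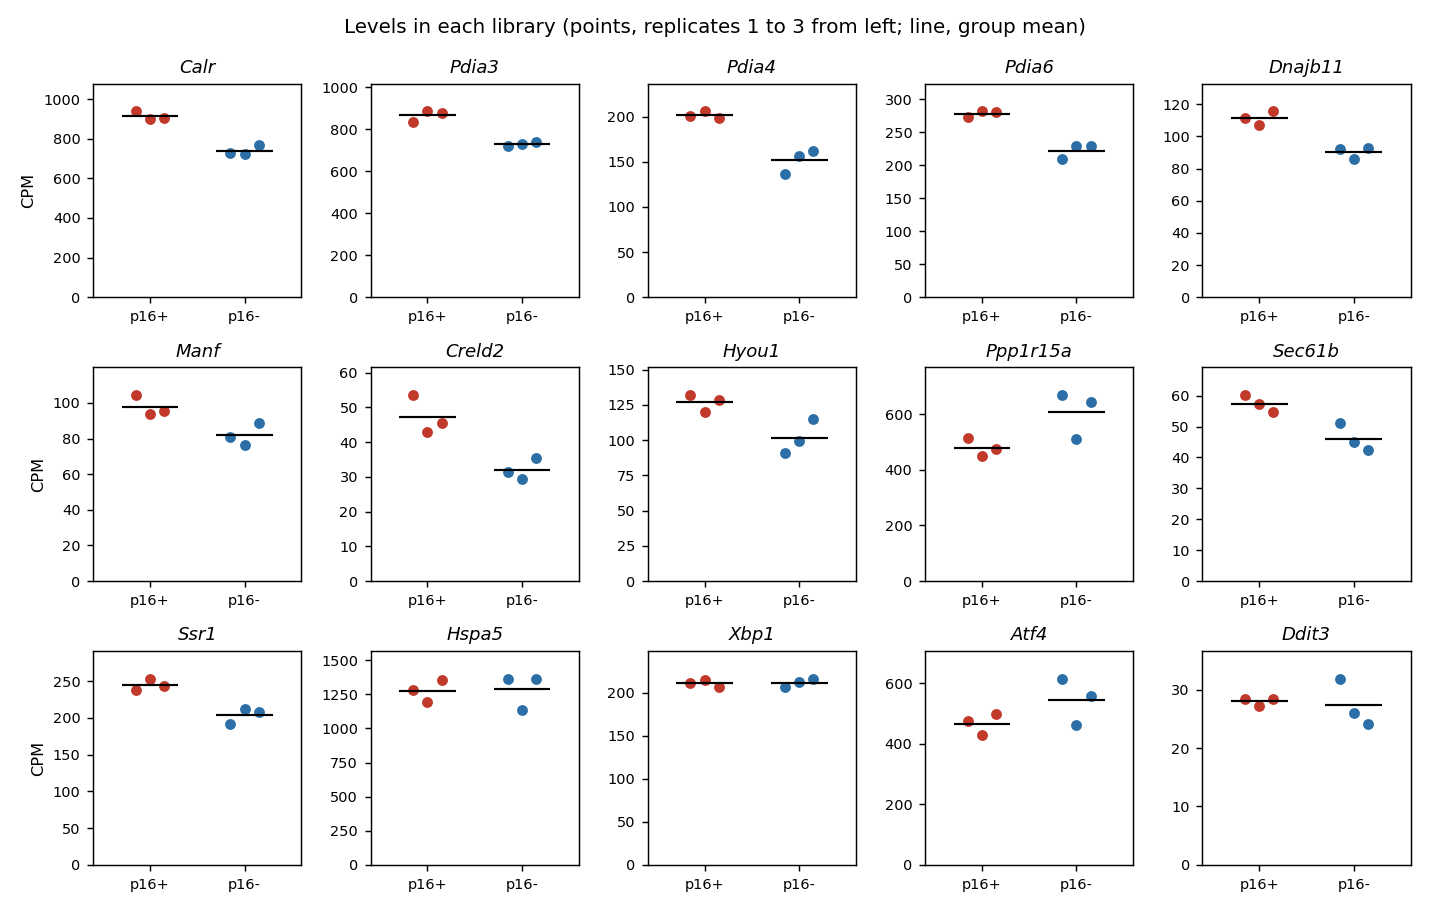
CPM in each of the 6 libraries for the 11 called members and for Hspa5, Xbp1, Atf4 and Ddit3, with 3 points for p16+ and 3 for p16- in each panel, replicates 1 to 3 from the left, and a line at the mean of each group; each axis starts at 0. The 10 genes that rose are separated between the groups, whereas the points of Ppp1r15a, Hspa5, Xbp1, Atf4 and Ddit3 overlap.

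Both translocon genes rose in p16+, as did 8.69% of all tested genes. The translocon is the channel through which nascent proteins enter the ER. Sec61b, a subunit of the channel itself, measured 60.1, 57.2 and 54.6 CPM in p16+, against 51.0, 45.0 and 42.3 CPM in p16-. The groups did not overlap, and the log2 fold change was 0.31 (SE 0.09, edgeR adjusted p = 0.0219). Ssr1, a subunit of the translocon-associated protein complex, measured 237.7, 252.6 and 243.0 CPM in p16+, against 191.1, 212.2 and 208.1 CPM in p16-. Here too all p16+ libraries were higher, with a log2 fold change of 0.26 (SE 0.08, edgeR adjusted p = 0.026). The Sec61b call was lost without p16+ replicate 1 (0.093) or 2 (0.0708) and without p16- replicate 2 (0.0585) or 3 (0.125). The Ssr1 call was lost without each p16+ library (0.052, 0.127 and 0.0849 without replicates 1, 2 and 3) and without p16- replicate 3 (0.071).

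The genes of the IRE1 and ATF6 arms, Ern1, Xbp1 and Atf6, were not called, and their median log2 fold change was -0.00. At an unadjusted p under 0.05 edgeR gave 1 higher (Ern1) and 0 lower, and DESeq2 called 0. Xbp1 measured 211.6, 214.9 and 207.0 CPM in p16+, against 206.8, 212.1 and 215.9 CPM in p16-, and the ranges lay almost on top of each other. Its log2 fold change was -0.00 with a 95% interval of -0.16 to 0.15 (edgeR adjusted p = 0.985). Counts per gene do not separate spliced from unspliced Xbp1, so the activity of IRE1 was not measured. Ern1 measured 38.5, 39.1 and 40.3 CPM in p16+, against 28.3, 35.5 and 36.9 CPM in p16-. The groups did not overlap, p16- replicate 1 was the lowest library, and the log2 fold change was 0.23 (95% interval 0.01 to 0.45, edgeR adjusted p = 0.165). Atf6 measured 56.2, 58.7 and 62.3 CPM in p16+, against 49.0, 65.8 and 65.0 CPM in p16-. The p16+ values lay within the p16- range, and the log2 fold change was -0.02 (95% interval -0.24 to 0.20, edgeR adjusted p = 0.926).

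In the PERK and ATF4 arm, 1 of 6 tested genes fell in p16+, 0 rose, and 5 were not called, with a median log2 fold change of -0.18. That single call was 16.7%, against 8.04% of all tested genes and 11.1% of those with a mean of at least 10 CPM. At an unadjusted p under 0.05 the edgeR counts were 1 higher (Eif2ak3) and 2 lower (Atf4 and Ppp1r15a), and DESeq2 called 0 higher and 1 lower. The 7 genes together measured 1111.6, 993.5 and 1085.3 CPM in p16+, against 1389.9, 1082.4 and 1313.8 CPM in p16-, and these sums overlapped. Most of each sum was Atf4 and Ppp1r15a.

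Ppp1r15a encodes GADD34, the stress-induced subunit of the phosphatase that reverses the phosphorylation of eIF2alpha. The gene (ENSMUSG00000040435.12) lies on chromosome 7 from 45522916 to 45526268, minus strand. It measured 514.8, 449.1 and 474.5 CPM in p16+, against 667.7, 511.9 and 645.2 CPM in p16-. The groups overlapped slightly, since p16- replicate 2 lay below p16+ replicate 1. The log2 fold change was -0.34 (SE 0.10, 95% interval -0.55 to -0.13, edgeR adjusted p = 0.0247), or 0.788-fold. The call was lost without p16+ replicate 2 (0.132) or 3 (0.103) and without p16- replicate 1 (0.0541) or 3 (0.127).

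Atf4, the transcription factor of the arm, had the same order of libraries within p16-. It measured 475.4, 428.1 and 498.0 CPM in p16+, against 614.3, 461.9 and 557.6 CPM in p16-. The groups overlapped, and the log2 fold change of -0.22 (95% interval -0.43 to -0.01) was not called (edgeR adjusted p = 0.158). Without p16- replicate 2 Atf4 was called lower (edgeR adjusted p = 0.0209). ATF4 is controlled mainly through translation of its transcript, which counts do not measure. Eif2ak3, the PERK kinase, measured 72.0, 72.2 and 66.9 CPM in p16+, against 53.8, 64.1 and 65.5 CPM in p16-. The groups did not overlap, and its log2 fold change was 0.20 (SE 0.09, edgeR adjusted p = 0.136). Of its exonic length, 8.0% is shared with another gene.

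Ppp1r15a also belongs to the genes that respond within minutes to handling and other stimuli, so the immediate-early genes were examined beside it. Of 17 immediate-early genes such as Egr1 and Klf4, 7 were lower and 1 was higher in p16+, with a median log2 fold change of -0.21. These were 41.2% and 5.88%, against 8.04% and 8.69% of all tested genes. In 10 of the 17 all p16+ libraries lay below all p16- libraries, against 16.5% of all tested genes. The count called lower was 4 without p16+ replicate 2 or replicate 3, and the count called higher was 3 without p16- replicate 1 and 0 when p16+ replicate 2, p16+ replicate 3 or p16- replicate 3 was left out. Their summed level was 27426.4, 26089.1 and 26692.9 CPM in p16+, against 33394.3, 29626.5 and 33575.7 CPM in p16-. Replicate 2 was the lowest library of each group in this sum, as in Ppp1r15a and Atf4. The part of the immediate-early genes in the result of Ppp1r15a was not tested.

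Of the members that ATF4 activates, Ppp1r15a was called lower as given above, Ddit3, Asns and Trib3 were not called, and Chac1 could not be tested. Ddit3, which encodes the proapoptotic factor CHOP, measured 28.4, 27.2 and 28.4 CPM in p16+, against 31.8, 26.0 and 24.2 CPM in p16-. The p16+ values lay within the p16- range, and the log2 fold change was 0.03 (95% interval -0.20 to 0.27, edgeR adjusted p = 0.887). Of the exonic length of Ddit3, 10.9% is shared with other entries, among them its second identifier (ENSMUSG00000116429.1), which had 0 counts in every library. Asns, asparagine synthetase, measured 18.6, 16.3 and 17.1 CPM in p16+, against 21.2, 16.5 and 19.6 CPM in p16- (log2 fold change -0.14, edgeR adjusted p = 0.524), with overlapping groups. Trib3, a pseudokinase that restrains ATF4, was low, with 2.04, 0.653 and 0.175 CPM in p16+, against 1.16, 1.87 and 1.72 CPM in p16-. Its counts were 74, 24 and 6 in p16+, against 47, 74 and 64 in p16-. Its spread in p16+ covered the p16- values, and the log2 fold change of -0.72 had an SE of 0.62 (edgeR adjusted p = 0.503). Chac1, which degrades glutathione, had counts of 11, 0 and 11 in p16+, against 0, 6 and 0 in p16-, and did not pass the filter on low counts. For scale, and not as the limit of that filter, 3 counts in a library stood for 0.0737 to 0.0876 CPM.

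The degradation genes, which recognise misfolded proteins and return them to the cytosol for the proteasome, were not called in either direction. All 6 had a positive log2 fold change, with a median of 0.14. At an unadjusted p under 0.05 edgeR gave 2 higher and 0 lower, and DESeq2 called 0. The 2 were Sel1l and Syvn1, the scaffold and the ubiquitin ligase of the main degradation complex. Sel1l measured 163.4, 182.4 and 189.9 CPM in p16+, against 132.8, 162.9 and 161.8 CPM in p16-. The groups were separated by under 1 CPM, and the log2 fold change was 0.23 (SE 0.09, edgeR adjusted p = 0.111). Syvn1 measured 56.8, 64.1 and 71.4 CPM in p16+, against 54.2, 55.0 and 55.9 CPM in p16-. All p16+ libraries were higher but far more spread, and the log2 fold change was 0.22 (SE 0.09, edgeR adjusted p = 0.107). It was called higher without p16+ replicate 1 (edgeR adjusted p = 0.0397).

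Herpud1, Edem1, Derl1 and Derl3 were not called either. Herpud1, a stress-induced partner of that complex with both ERSE-II and the CARE core in its promoter window, averaged 99.8 ± 2.16 CPM in p16+, against 97.3 ± 4.70 CPM in p16- (SD, n = 3 each, log2 fold change 0.04, edgeR adjusted p = 0.80). Edem1, a lectin that directs glycoproteins to degradation, averaged 74.5 ± 3.05 CPM in p16+, against 71.0 ± 2.95 CPM in p16- (SD, n = 3 each, edgeR adjusted p = 0.616). Derl1, a membrane component of retrotranslocation, averaged 121.1 ± 6.02 CPM in p16+, against 115.9 ± 4.19 CPM in p16- (SD, n = 3 each, edgeR adjusted p = 0.641). The groups of all 3 genes overlapped. Its relative Derl3 was low, with 0.303, 0.980 and 0.526 CPM in p16+, against 0.442, 0.504 and 0.430 CPM in p16- (log2 fold change 0.39, SE 0.66, edgeR adjusted p = 0.756).

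Levels were compared between genes per length, as CPM per kb of exon. Calr, Hspa5 and Pdia3 led in p16+, with 317.5 ± 7.23, 301.7 ± 18.8 and 276.0 ± 8.28 CPM per kb, and Hspa5, Calr and Pdia3 led in p16-, with 304.1 ± 30.7, 257.2 ± 8.18 and 232.5 ± 3.24 CPM per kb (SD, n = 3 each). Calr and Hspa5 were within 1 SD of each other in p16+. Atf4 measured 198.1 ± 15.1 CPM per kb in p16+ and 231.0 ± 32.6 in p16-, Hsp90b1 192.0 ± 1.57 in p16+ and 172.2 ± 11.1 in p16-, and Ppp1r15a 163.3 ± 11.3 in p16+ and 207.1 ± 28.7 in p16-. Hsp90b1 lay above Ppp1r15a in p16+ and below it in p16-. Atf4 and Ppp1r15a differed by less than their spread in p16-. The sensors were far lower, with Eif2ak3 at 11.7 ± 0.499, Atf6 at 6.40 ± 0.332 and Ern1 at 4.81 ± 0.112 CPM per kb in p16+, and at 10.1 ± 1.07, 6.49 ± 1.03 and 4.11 ± 0.567 CPM per kb in p16- in the same order. The lowest tested members were Trib3 and Derl3, with means of 0.449 and 0.302 CPM per kb in p16+ and 0.744 and 0.230 CPM per kb in p16-.

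**Figure D3:**
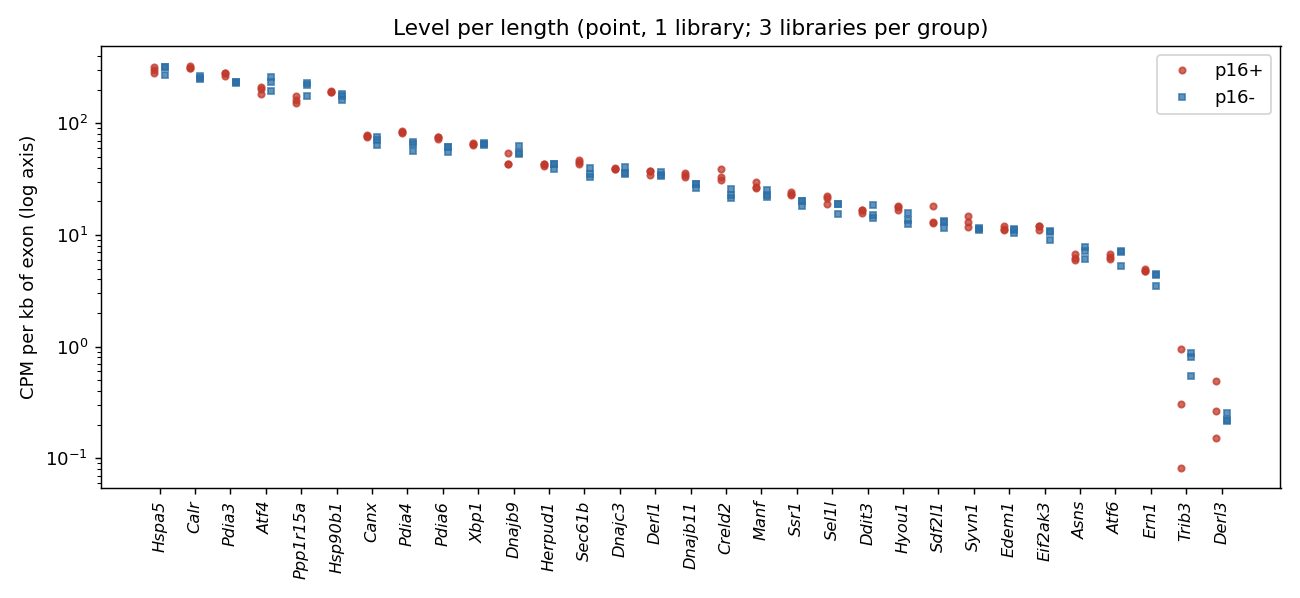
Level per length of the 31 tested members, in CPM per kb of exon on a log axis, ordered by their mean over 6 libraries; each point is 1 library, 3 of p16+ and 3 of p16- for each gene. Hspa5, Calr and Pdia3 stand at the top, and Trib3 and Derl3 stand below all other members and are the most spread.

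Single libraries differed in how often they were extreme. Of the 31 tested members, p16- replicate 1 was the lowest library for 15 and the highest for 6, and p16+ replicate 1 was the highest for 10. The 6 genes in which p16- replicate 1 was highest included Atf4, Ppp1r15a, Asns, Ddit3, Dnajb9 and Hspa5, which are 4 genes of the PERK and ATF4 arm, a cochaperone and BiP. Among the 15 in which it was lowest were Pdia4, Pdia6, Hyou1, Ern1, Eif2ak3 and Sel1l.

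Wider lists of the same pathways, which hold no members, were counted in the same fit. Over all tested genes 8.69% were higher and 8.04% were lower in p16+. Among genes with a mean of at least 10 CPM these shares were 12.3% and 11.1%. Of 28 other ER folding genes 11 were higher and 0 were lower in p16+ (14 and 0 at an unadjusted p under 0.05, 13 and 0 by DESeq2), with a median log2 fold change of 0.18. The 4 with the smallest p were led by Pdia5, another disulfide isomerase. It averaged 64.0 ± 5.67 CPM in p16+, against 37.6 ± 2.26 CPM in p16- (SD, n = 3 each, log2 fold change 0.77, SE 0.09, edgeR adjusted p = 1.69e-05). Fkbp10, a prolyl isomerase for collagen, averaged 333.8 ± 17.1 CPM in p16+, against 215.3 ± 20.5 CPM in p16-. Fkbp11, of the same family, averaged 32.3 ± 2.14 CPM in p16+, against 21.1 ± 1.21 CPM in p16-. Serpinh1, the collagen chaperone HSP47, averaged 2432.6 ± 115.0 CPM in p16+, against 1777.5 ± 78.3 CPM in p16- (SD, n = 3 each). Their edgeR adjusted p-values were 6.71e-05, 0.000455 and 0.000632, and the groups of none of the 4 overlapped. The count called higher was 6 without p16+ replicate 2, 7 without p16+ replicate 3 and 7 without p16- replicate 3.

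Serpinh1 and Fkbp10 act on collagen, so the stromal markers are given beside them. Col1a1, a chain of type I collagen, rose in p16+ and measured 37181.6, 38870.2 and 37441.2 CPM in p16+, against 18732.5, 22636.4 and 19872.6 CPM in p16-, and the 7 stromal markers to which it belongs summed to 84857.8, 87545.1 and 86588.9 CPM in p16+, against 50711.7, 57933.9 and 54228.5 CPM in p16-. Most of that sum was Col1a1 and Col1a2. Of the 7 markers 4 were higher (57.1%, against 8.69% of all tested genes) and 0 were lower. At an unadjusted p under 0.05 edgeR gave 5 higher and 1 lower markers, and DESeq2 called 5 and 0. Of those not called, Pdgfra measured 823.7, 846.2 and 927.7 CPM in p16+, against 887.7, 1040.9 and 1126.3 CPM in p16-, and Dcn measured 7956.3, 7429.3 and 8265.2 CPM in p16+, against 9101.0, 8206.0 and 8924.6 CPM in p16-. The part of collagen synthesis in the results for the folding genes was not tested.

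Of 20 other translocon and signal peptide genes 3 were higher and 0 were lower (8 and 0 at an unadjusted p under 0.05, 4 and 0 by DESeq2), with a median log2 fold change of 0.16. They were Ssr2, Sec61a1 and Srprb, with edgeR adjusted p-values of 0.00387, 0.0191 and 0.0268, and 12.8% of the exonic length of Ssr2 and 20.7% of that of Srprb is shared with other genes. Sec61a1, the channel-forming subunit, measured 287.7, 274.3 and 276.7 CPM in p16+, against 218.0, 241.2 and 234.2 CPM in p16-. Of the 13 genes of transport between ER and Golgi 4 were higher and 0 were lower (8 and 1 at an unadjusted p under 0.05, 5 and 0 by DESeq2), with a median of 0.19. Against the same shares of 8.69% and 12.3%, these 4 were 30.8%. All 3 KDEL receptors, which return escaped ER chaperones from the Golgi, were among them, together with the coat subunit Sec24d. Kdelr3 measured 155.9, 162.7 and 153.4 CPM in p16+, against 127.7, 122.6 and 113.5 CPM in p16- (log2 fold change 0.38, SE 0.08, edgeR adjusted p = 0.00238). Kdelr2 averaged 249.3 CPM in p16+ and 193.2 CPM in p16-, and Kdelr1 averaged 180.8 CPM in p16+ and 151.0 CPM in p16-. Leaving out p16+ replicate 2, p16+ replicate 3 or p16- replicate 3 gave 1 higher translocon gene and 2 higher transport genes, and leaving out p16- replicate 1 gave 5 higher translocon genes.

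Of the 8 tested genes of other membrane-bound transcription factors and their processing 3 were higher and 0 were lower (4 and 0 at an unadjusted p under 0.05, 3 and 0 by DESeq2), with a median of 0.13. The 3 were 37.5%, against 8.69% of all tested genes and 12.3% of those with a mean of at least 10 CPM. Creb3l1, a factor of the same design as ATF6 that drives collagen secretion in bone, measured 233.2, 248.4 and 233.2 CPM in p16+, against 146.1, 164.7 and 172.3 CPM in p16-. The groups were well apart, and the log2 fold change was 0.57 (SE 0.08, edgeR adjusted p = 0.000129). Atf6b averaged 50.9 CPM in p16+ and 40.3 CPM in p16- (edgeR adjusted p = 0.0158), and Creb3 averaged 61.6 CPM in p16+ and 51.6 CPM in p16- (edgeR adjusted p = 0.0386), with 20.8% of its exonic length shared with other genes. The count was 1 without p16+ replicate 2. Ern2, the IRE1 of epithelia, had 0 counts in every library.

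Other targets of ATF4 and genes of the integrated stress response went both ways. Of 28 genes 6 were higher and 3 were lower, with a median of 0.07. At an unadjusted p under 0.05 edgeR gave 9 higher and 5 lower, and DESeq2 called 7 higher and 3 lower. The 3 called lower were 10.7% of the list, against 8.04% of all tested genes and 11.1% of those with a mean of at least 10 CPM. The 6 called higher were 21.4%, against 8.69% and 12.3%. Ddit4, an inhibitor of mTORC1 that several stresses induce, measured 91.0, 105.4 and 97.6 CPM in p16+, against 49.2, 54.2 and 43.1 CPM in p16- (log2 fold change 1.00, SE 0.09, edgeR adjusted p = 1.69e-06). Atf3, a stress-induced factor that is also an immediate-early gene, measured 1287.4, 1059.6 and 1168.5 CPM in p16+, against 2150.5, 1665.4 and 2122.5 CPM in p16- (log2 fold change -0.76, SE 0.10, edgeR adjusted p = 8.07e-05). Neither gene overlapped between the groups, and they moved in opposite directions. Vldlr, a lipoprotein receptor, fell to 61.0, 63.5 and 62.4 CPM in p16+, against 92.5, 112.3 and 110.8 CPM in p16- (edgeR adjusted p = 1.17e-05). Nupr1, a stress-induced chromatin protein, averaged 178.6 ± 10.7 CPM in p16+, against 128.5 ± 7.51 CPM in p16- (SD, n = 3 each, edgeR adjusted p = 0.000474). The count called lower was 5 without p16- replicate 2.

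Of 19 other degradation genes 1 was higher and 1 was lower, with a median of 0.07. These were 5.26% each, against 8.69% higher and 8.04% lower among all tested genes. At an unadjusted p under 0.05 edgeR gave 2 higher and 1 lower, and DESeq2 called 1 of each. The higher one was the lectin gene Erlec1. The lower one was Edem2, an enzyme that trims mannose from misfolded glycoproteins. Edem2 averaged 36.1 ± 3.70 CPM in p16+, against 47.7 ± 3.47 CPM in p16- (SD, n = 3 each, log2 fold change -0.40, SE 0.10, edgeR adjusted p = 0.00881). Erlec1 measured 76.0, 75.9 and 80.6 CPM in p16+, against 66.2, 62.4 and 67.6 CPM in p16- (log2 fold change 0.24, SE 0.07, edgeR adjusted p = 0.0334). Neither overlapped between the groups. Erlec1 was lost without any one p16+ library or without p16- replicate 3, when 0 genes of the list were higher, and Edem2 was lost without p16+ replicate 3 or p16- replicate 3.

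Many heat shock proteins are chaperones that act outside the ER. Of 13 heat shock genes of the cytosol and mitochondria 0 were higher and 2 were lower in p16+ (0 and 5 at an unadjusted p under 0.05, 0 and 2 by DESeq2), with a median of -0.19. The 2 were 15.4% of the list, against 11.1% called lower among genes with a mean of at least 10 CPM. Hsp90aa1, the inducible cytosolic Hsp90, measured 181.9, 189.1 and 211.3 CPM in p16+, against 261.0, 225.5 and 268.3 CPM in p16- (log2 fold change -0.37, SE 0.09, edgeR adjusted p = 0.00714). Bag3, a cochaperone induced by heat shock, averaged 199.5 CPM in p16+ and 250.9 CPM in p16- (edgeR adjusted p = 0.0124). The count called lower was 4 without p16- replicate 2, 1 without p16+ replicate 2 and 1 without p16- replicate 3.

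**Figure D4:**
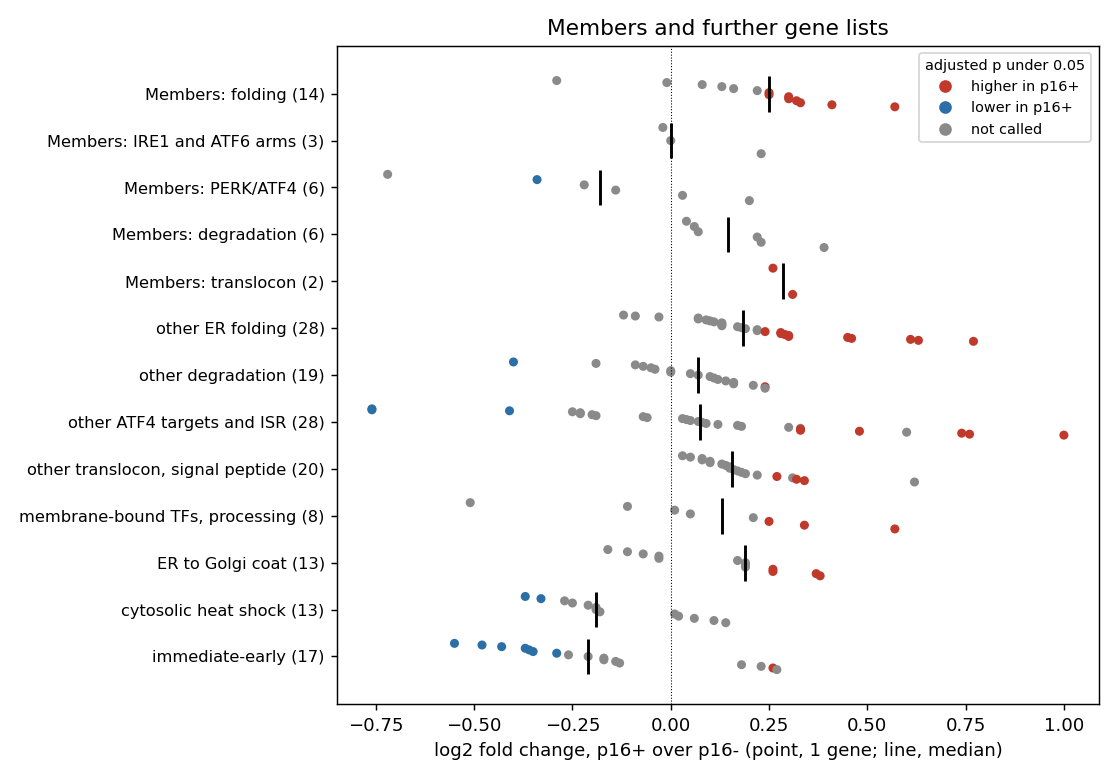
Log2 fold change (p16+ over p16-) of each tested gene in the 5 branches of members and in the 8 wider lists; each point is 1 gene, red where higher and blue where lower in p16+ at an adjusted p under 0.05 in edgeR's quasi-likelihood test and grey where not called, the short line is the median, and the number of genes stands beside each list. Medians lie above 0 in the folding, degradation, translocon, transport and membrane-bound factor lists and, at 0.07, in the list of other ATF4 targets. They lie below 0 in the PERK/ATF4 members and in the heat shock and immediate-early lists. The median of the IRE1 and ATF6 arms was -0.0.

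Other cell types that make much ER protein were looked for in the libraries. The 10 leukocyte markers summed to 302.7, 302.1 and 271.4 CPM in p16+, against 212.8, 188.6 and 215.5 CPM in p16-. Of these markers 4 were called higher (40.0%, against 8.69% of all tested genes), among them Lyz2 and Csf1r. The 10 plasma and B cell markers summed to 59.6, 23.9 and 84.3 CPM in p16+, against 22.5, 4.92 and 10.0 CPM in p16-, mostly from Ighm. Of the 10, 4 were tested and 0 were called by edgeR, 2 at an unadjusted p under 0.05 and 2 by DESeq2. All 4 had a positive log2 fold change, from 2.12 to 2.74 with a median of 2.23. Tnfrsf17, which was not tested, had counts of 0, 0 and 0 in p16+, against 0, 3 and 0 in p16-. The 6 endothelial markers summed to 93.0, 66.6 and 83.8 CPM in p16+, against 172.4, 194.0 and 205.1 CPM in p16-, mostly from Tek, while Pecam1, Emcn and Vwf were higher in p16+. The 4 glial markers summed to 28.1, 24.4 and 33.2 CPM in p16+, against 82.4, 45.7 and 65.8 CPM in p16-, with 3 lower, and the 5 muscle markers summed to 28.1, 18.2 and 16.7 CPM in p16+, against 16.6, 14.1 and 14.8 CPM in p16-, with 1 higher. The part of the leukocyte, plasma and B cell, endothelial, glial and muscle markers in the results above was not tested.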

How the data were processed

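The deposited files hold raw fragment counts per gene, which the authors made with featureCounts 1.6.0 on GENCODE vM21 exons without a strand option, per the file headers. At that command's defaults a fragment that falls in more than 1 gene is dropped. Per the submitters' processing notes, STAR 2.7.3a aligned the reads, on GRCm38.p6, and the kit does not mark strand, per the labels' protocols. From the counts, 15903 genes were kept by filterByExpr (99.918% to 99.932% of the counts) and tested with TMM factors and the robust quasi-likelihood test of edgeR 4.0.16 in R 4.3.3, with the group alone in the model and Benjamini-Hochberg adjustment over these genes. The biological coefficient of variation was 0.158. The script was checked on simulated counts. SE is the log2 fold change divided by the root of F. A level per length divides CPM by the exonic length in the file. All members are named; of each wider list at most the 4 called genes with the smallest p are named, beside markers and examples chosen after their values were seen. The members and lists were chosen with earlier results of these data known. Alternatives were RLE and upper-quartile factors, library sizes alone, no filter, 1 CPM in 3 libraries, no robust estimation, a replicate block, each library left out, and DESeq2 1.42.0. Replicate numbers are shared between groups without a stated pairing, and the exact permutation test of 3 against 3 cannot go below 0.10.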

Additional observations from a re-analysis of the deposited data

How the results depend on the processing

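Of the 11 called members, 4 (Calr, Pdia4, Pdia6 and Creld2) were called the same way in all 14 alternatives, and RLE factors, upper-quartile factors, the CPM filter and no robust estimation left the counts by branch as they were. With library sizes alone, 5 members and 5 folding genes were called higher and 2 members and 1 folding gene lower, and 36.0% of all calls were higher, against 52.0% with TMM factors. With no filter, and also with DESeq2, 2 members and 1 folding gene were called lower. Leaving out 1 library gave 5 to 9 members and 4 to 7 folding genes higher, 0 to 3 members, 0 to 1 folding genes and 0 to 2 PERK and ATF4 genes lower, and 0 to 1 degradation genes higher, with fewer samples in each fit. The replicate block called 11 members higher, 3 members lower, 1 folding gene (Dnajb9) and 2 PERK and ATF4 genes lower and 1 degradation gene (Sel1l) higher. Over all genes the block called 3114 in either direction, against 2660 without it. Residuals of same-numbered libraries correlated at 0.028, 0.082 and -0.005, and those of differently numbered libraries at -0.069 to 0.039. With 3 libraries per group these values cannot decide whether the numbers are a pairing. The labels state none, so the main fit used none.

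Log2 fold changes of 8 uncalled members changed sign in 19 cases. Over fits without 1 library, Hspa5 lay between -0.091 and 0.034, Xbp1 between -0.017 and 0.014, Atf6 between -0.144 and 0.054, Ddit3 between -0.044 and 0.161, Herpud1 between -0.001 and 0.060, and Derl3 between -0.150 and 0.710. With library sizes alone Ddit3 was at -0.043, Herpud1 at -0.039, Edem1 at -0.0065 and Derl1 at -0.011. Xbp1 was at 0.00033 with RLE factors and at 0.00036 with DESeq2. The cause of these changes was not tested. Of the counts of the wider lists under the alternatives, 41 moved by over 1.5 times or to or from 0. The other 183 did not, and some of these were 0 in both fits. Counts were low for Chac1, Trib3 and Derl3, and Trib3 also varied widely among the p16+ libraries.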
